A study of Mus musculus with 26 samples.

Results

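The 9 transcription factor genes of blood stem and multipotent progenitor cells are described: Hlf, Lmo2, Meis1, Tal1, Lyl1, Mecom, Hhex, Gfi1 and Gfi1b. They were named as a set of 9 of the 21887 protein-coding genes in the gene table used, and every H3K4me3 peak that met the gene's span or the 5 kb on either side of it was taken. Early-B cells are mouse Ebf1-/- progenitors that received EBF1 from the MigR1-EBF1.ER vector and were kept for 2 days on OP9 stromal cells with 4-O-Hydroxy-tamoxifen, which switches the fusion on, and the cytokines SCF, FLT3-L and IL-7. They are set against the Ebf1-/- progenitors themselves, whose own culture the labels do not state. Both groups thus share the Ebf1-/- genotype. The labels name 2 immunoprecipitated and 2 input samples per group, but each group has 1 peak list, so replicate spread could not be measured for any difference and no test was possible. The depth behind each peak is unknown, because the lists hold no read counts. OP9 cells are of mouse origin too, so chromatin from the feeder layer would map to the same genome.

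H3K4me3 is a histone mark laid down around the starts of genes that are active or held ready, and wide stretches of it are common at genes that set cell identity. Lmo2, Tal1 and Lyl1 encode members of a complex in which the LIM-only protein LMO2 bridges basic helix-loop-helix factors and GATA factors. Meis1 and Hhex encode homeodomain proteins, Hlf a PAR-type basic leucine zipper factor that marks stem cells, and Mecom a zinc finger factor needed for stem cell maintenance. Gfi1 and Gfi1b encode related zinc finger repressors that recruit the demethylase LSD1.

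Every gene of the set except Hlf had H3K4me3 peaks in both lists. Of the 9 genes, 8 had an Early-B peak and 9 had a progenitor peak, where 72.9% and 66.2% of all protein-coding genes had such peaks. Both lists had a peak at 8 of the 9 genes and at 64.5% of all genes, and 0 of the 9 had an Early-B peak only, against 8.47% of all genes. The Early-B list held 23 peaks at these genes, between 503 and 10439 bp long, and the progenitor list held 20, between 494 and 13771 bp long. Of the Early-B peaks, 15 (65.2%) overlapped a progenitor peak, and of the progenitor peaks, 14 (70.0%) overlapped an Early-B peak. Over all peaks of each list the same shares were 49.6% (Early-B) and 77.2% (progenitors). The peaks without a partner were weak to moderate: the 8 of Early-B had −log10 p values between 1.93 and 17.6, and the 6 of progenitors had values between 1.99 and 5.44. Pileup (the read coverage reported by the peak caller), −log10 p and percentile within a list are the authors' values or ranks of them, and they describe a peak within its own list. Which version of the peak caller wrote them is not settled, since the columns are those of broad peaks from a later version than the one the submitters name. Since the lists differ in length and their scaling is not known, such values are given side by side and do not measure change. Each list describes a whole population of cells, so fewer marked cells and less mark per cell cannot be told apart.

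**Figure D1:**
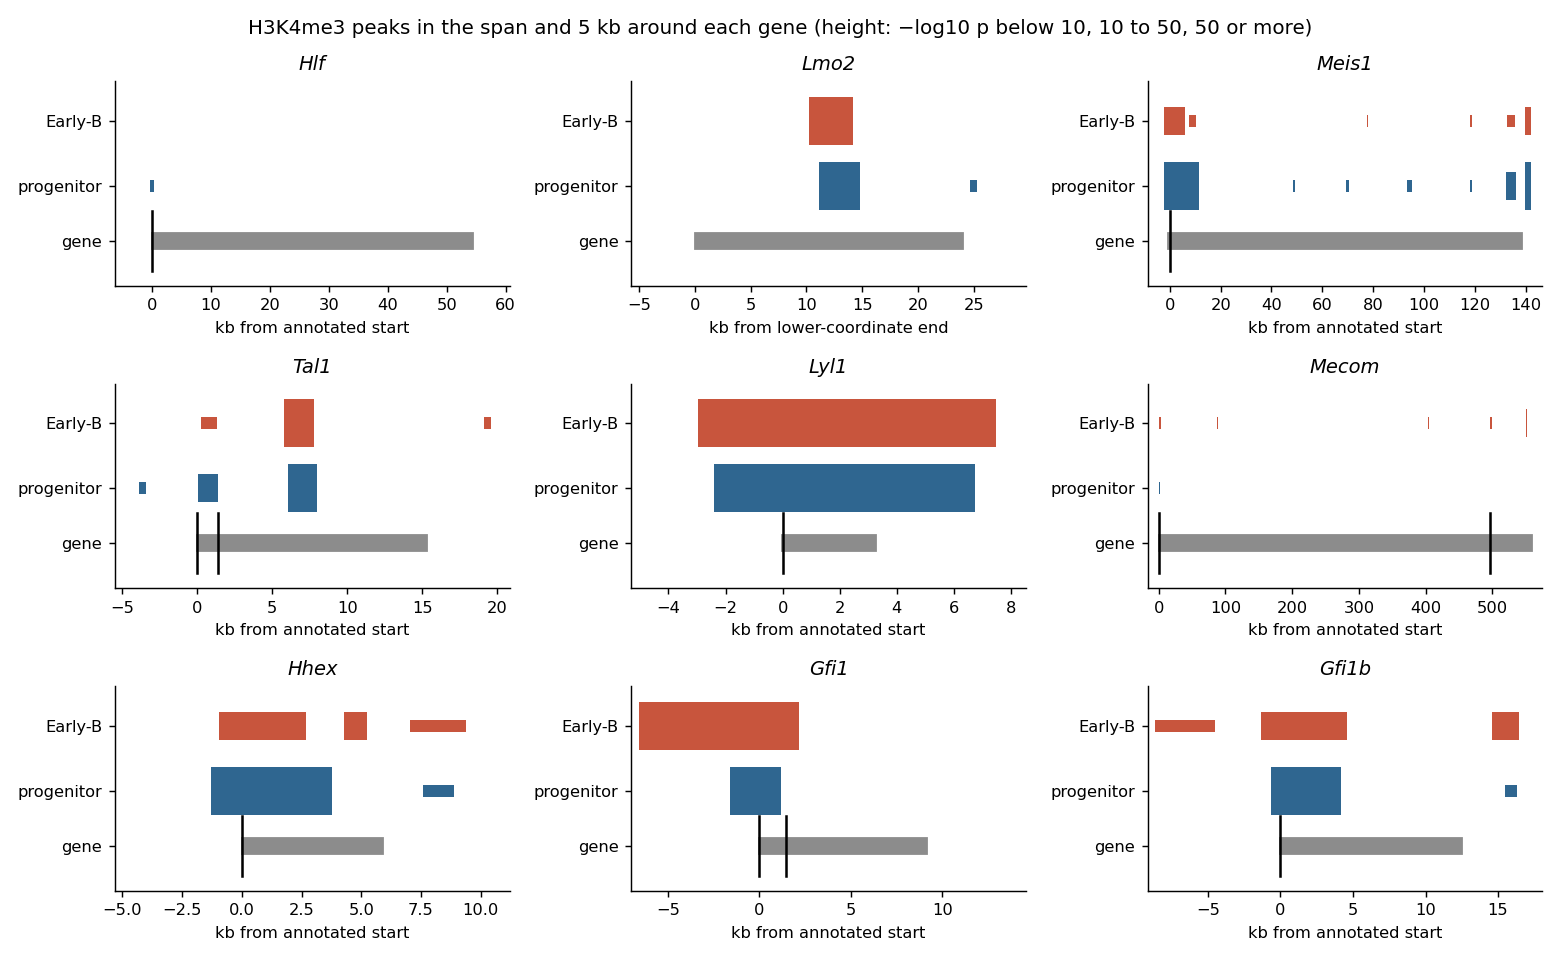
Peaks of the Early-B list (red, upper row) and of the progenitor list (blue, middle row) at each gene, with distance in kb along the x axis in the direction of transcription, and from the lower-coordinate end for Lmo2. Grey bars are the gene span, black ticks the annotated starts, and bar height gives 3 classes of −log10 p. Hlf has no Early-B peak, and the Gfi1 start peak extends further upstream in Early-B.

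Start sites were covered at most genes in both lists. RefSeq's promoter table (GRCm38.p6, the assembly of mm10) holds 11 starts for 8 of the genes, and 7 of the 11 lay inside an Early-B peak and 7 inside a progenitor peak. The shares over all starts of protein-coding genes were 55.6% for the Early-B list and 53.0% for the progenitor list. By gene, 6 of 8 had a start inside an Early-B peak and 7 of 8 inside a progenitor peak. The shares above are per start and cannot be set against these counts by gene, since genes with more starts have more chances. Both lists covered 5 of the 11 starts, against 51.0% of all starts. The lists disagreed at 4 starts: 2 were inside an Early-B peak only (the second starts of Mecom and Gfi1) and 2 inside a progenitor peak only (Hlf and the second start of Tal1). Over all starts, 4.56% were inside an Early-B peak only and 2.03% inside a progenitor peak only. Neither list covered the first start of Mecom or of Tal1.

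The promoters at these disagreeing starts, and the first start of Tal1 where only the edge differs, are printed because the lists part ways within them. Each runs 5′ to 3′ on the gene's strand, from 250 bases before the start to 50 bases after it, credited to RefSeq. Capitals mark the bases inside a peak of 1 list only: the progenitor list for Hlf and Tal1, the Early-B list for Mecom and Gfi1. They lie at chr11:90390868-90391167 (Hlf, minus strand), chr4:115056176-115056475 and chr4:115057561-115057860 (Tal1, plus strand), chr3:30013155-30013454 (Mecom, minus strand) and chr5:107724294-107724593 (Gfi1, minus strand).
Hlf: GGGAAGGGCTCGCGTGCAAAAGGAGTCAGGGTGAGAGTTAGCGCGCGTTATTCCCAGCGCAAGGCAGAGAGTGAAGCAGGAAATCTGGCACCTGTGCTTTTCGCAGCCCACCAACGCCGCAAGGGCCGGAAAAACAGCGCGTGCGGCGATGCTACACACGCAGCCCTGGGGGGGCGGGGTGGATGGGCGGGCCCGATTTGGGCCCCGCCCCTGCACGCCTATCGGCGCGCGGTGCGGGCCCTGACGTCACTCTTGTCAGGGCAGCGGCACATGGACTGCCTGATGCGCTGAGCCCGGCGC
Tal1, first start: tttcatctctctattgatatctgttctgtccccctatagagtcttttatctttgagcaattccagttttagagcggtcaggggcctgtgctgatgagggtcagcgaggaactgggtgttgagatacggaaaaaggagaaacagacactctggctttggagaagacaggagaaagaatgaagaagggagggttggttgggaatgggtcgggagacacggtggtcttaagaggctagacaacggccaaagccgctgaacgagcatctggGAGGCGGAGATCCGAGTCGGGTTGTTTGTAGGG
Tal1, second start: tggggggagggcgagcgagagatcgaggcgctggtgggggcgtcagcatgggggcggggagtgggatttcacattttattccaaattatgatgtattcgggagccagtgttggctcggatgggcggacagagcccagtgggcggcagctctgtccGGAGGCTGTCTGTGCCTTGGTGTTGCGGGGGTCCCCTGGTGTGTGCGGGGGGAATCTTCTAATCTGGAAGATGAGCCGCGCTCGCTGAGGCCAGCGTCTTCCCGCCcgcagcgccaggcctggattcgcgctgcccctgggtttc
Mecom, second start: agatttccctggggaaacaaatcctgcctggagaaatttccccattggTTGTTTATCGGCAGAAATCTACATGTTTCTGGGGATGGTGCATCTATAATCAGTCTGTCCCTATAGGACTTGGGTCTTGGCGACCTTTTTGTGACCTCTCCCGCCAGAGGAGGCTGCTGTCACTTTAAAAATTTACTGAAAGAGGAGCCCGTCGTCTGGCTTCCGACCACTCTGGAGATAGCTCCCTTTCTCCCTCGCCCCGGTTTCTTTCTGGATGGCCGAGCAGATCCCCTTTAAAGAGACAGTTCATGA
Gfi1, second start: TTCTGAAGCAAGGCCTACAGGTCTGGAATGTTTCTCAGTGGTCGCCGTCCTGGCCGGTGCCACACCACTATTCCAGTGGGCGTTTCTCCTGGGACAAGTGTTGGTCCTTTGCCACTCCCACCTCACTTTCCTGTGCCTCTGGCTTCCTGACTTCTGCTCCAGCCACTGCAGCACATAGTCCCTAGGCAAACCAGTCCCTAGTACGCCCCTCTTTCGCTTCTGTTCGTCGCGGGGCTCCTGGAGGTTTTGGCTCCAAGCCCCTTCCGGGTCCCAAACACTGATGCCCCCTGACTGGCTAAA

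The printed stretches differ in how much is covered. No base of the Hlf promoter was inside an Early-B peak and all 300 were inside the progenitor peak. At the first start of Tal1, 0 bases were in an Early-B peak and 33 in a progenitor peak. At the second start of Tal1, 155 bases were in an Early-B peak and 261 in a progenitor peak, so the Early-B peak stops 96 bp before this start while the progenitor peak ends 10 bp past it. At the second start of Mecom, 252 bases were in an Early-B peak and 0 in a progenitor peak. At the second start of Gfi1, all 300 bases were in the Early-B peak and 0 in a progenitor peak, whose edge lay 288 bp away. These differences of Tal1 and Gfi1 are differences in where a shared peak ends.

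Of the LMO2 complex, Lmo2 itself carried a strong peak of similar extent in both lists. The Early-B peak ran from 103968154 to 103972095 on chromosome 2 (pileup 133, −log10 p 135). The progenitor peak spanned 103969000 to 103972694 (pileup 181, −log10 p 215). Both lie inside the gene span of 103957903 to 103981878 and over the long noncoding RNA gene Gm38515. None of the annotated starts at hand lay inside them. No annotated start of Lmo2 itself was at hand, so whether these peaks lie over it is not known. The peaks share 3096 bp, with the Early-B peak starting and ending at lower coordinates. A second progenitor peak of 678 bp beyond the higher-coordinate end (103982537 to 103983214, −log10 p 5.44) had no Early-B partner.

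Tal1, the helix-loop-helix factor that specifies blood, had its strongest peak inside the gene and not at a start. This internal peak covered 1985 bp in Early-B (115062208 to 115064192 on chromosome 4, pileup 87.3, −log10 p 74.7) and 1935 bp in progenitors (115062460 to 115064394, pileup 122, −log10 p 119), with 1733 bp in common. The peak next to its annotated starts ranked lower in both lists. In Early-B it lay between the starts, and in progenitors it also took in the second start. The Early-B peak was 1029 bp wide, with pileup 18.4 and −log10 p 5.15, which placed its pileup above 44.4% of the list. The progenitor peak was 1379 bp wide, with pileup 49.6 and −log10 p 29.5, above 64.8% of the list. Each list also had a weak private peak in the flanks: 503 bp beyond the 3′ end in Early-B (−log10 p 3.19) and 494 bp upstream of the gene in progenitors (4.77).

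Lyl1, a close relative of TAL1, lay wholly inside a single wide peak in both lists. The Early-B peak covered 10439 bp (84698486 to 84708924 on chromosome 8, pileup 131, −log10 p 134) and the progenitor peak 9151 bp (84699051 to 84708201, pileup 170, −log10 p 187). The gene spans only 3294 bp, so the peaks also reach Trmt1 on the lower side and Nfix on the higher side. The only annotated start inside either peak is that of Lyl1. From this start the Early-B peak extended 2971 bp upstream and 7467 bp downstream, and the progenitor peak 2406 and 6744 bp. The progenitor peak lay entirely within the Early-B peak.

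Hhex, a homeodomain factor used by lymphoid progenitors, had a start peak in both lists and its own private Early-B peak. The start peak covered 3648 bp in Early-B (37433893 to 37437540 on chromosome 19, pileup 60.7, −log10 p 44.5) and 5052 bp in progenitors (37433560 to 37438611, pileup 185, −log10 p 223). The Early-B peak was contained in the progenitor peak. From the start it reached 948 bp upstream and 2699 bp downstream in Early-B, against 1281 and 3770 bp in progenitors. Within their lists the start peaks ranked above 79.5% of Early-B and 91.8% of progenitor peaks by pileup. A 981-bp Early-B peak further into the gene (37439112 to 37440092, pileup 37.9, −log10 p 17.6) met no progenitor peak. It was the strongest private Early-B peak at any of the 9 genes. A peak past the 3′ end was shared, with 2320 bp in Early-B and 1317 bp in progenitors.

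Meis1, the HOX cofactor, had the widest progenitor peak of the set. Its start peak covered 8037 bp in Early-B (19013087 to 19021123 on chromosome 11, pileup 50.9, −log10 p 30.7) and 13771 bp in progenitors (19007400 to 19021170, pileup 106, −log10 p 97.3). The upstream edges nearly coincided, 2154 bp before the start in Early-B and 2201 bp in progenitors. The downstream edges did not, at 5882 bp in Early-B and 11569 bp in progenitors. In the Early-B list a separate 2622-bp peak (−log10 p 1.83, q above 0.05) occupied part of that further stretch. At the other end of the gene, a peak over the starts of the long noncoding RNA gene 8430419K02Rik covered 2531 bp in both lists, with 2477 bp in common and −log10 p values of 16.8 in Early-B and 54.9 in progenitors. A peak just inside the 3′ end of Meis1 was 3040 bp wide in Early-B (5.59 by −log10 p) and 3857 bp wide in progenitors (16.1). Deeper in the gene lay 1 private Early-B peak (4.12) and 3 private progenitor peaks, all 3 with q above 0.05, and a weak shared peak (1.58 in Early-B and 1.85 in progenitors).

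Gfi1, a repressor that acts in stem cells and in lymphocyte and granulocyte development, had the opposite asymmetry, with the wider start peak in Early-B. That peak covered 8759 bp in Early-B (107723639 to 107732397 on chromosome 5, pileup 82.9, −log10 p 67.8) and 2786 bp in progenitors (107724631 to 107727416, pileup 109, −log10 p 102). The whole progenitor peak lay inside it and made up 31.8% of its length. Most of the extra length lay upstream: the Early-B peak reached 6592 bp before the first start and the progenitor peak 1611 bp. Downstream the reach was 2166 bp in Early-B and 1174 bp in progenitors. No other protein-coding gene was touched by either peak.

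Gfi1b, the relative of Gfi1 used in the erythroid and megakaryocyte lineages, was also covered over its start in both lists. The start peak covered 5963 bp in Early-B (28617369 to 28623331 on chromosome 2, pileup 37.8, −log10 p 20.4) and 4800 bp in progenitors (28617806 to 28622605, pileup 73.8, −log10 p 60.6). It also takes in the start of the noncoding gene Gm52548, which runs on the other strand, so which gene the mark belongs to cannot be told apart. A peak beyond the 3′ end covered 1844 bp in Early-B and 860 bp in progenitors, with −log10 p values of 10.6 and 3.59. Upstream, a 4141-bp Early-B peak (28626465 to 28630605, −log10 p 4.52) had no progenitor partner.

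By pileup and −log10 p of their best peak, Hlf and Mecom stood lowest of the set. Hlf had 0 Early-B peaks and 1 progenitor peak of 691 bp over its start (90390512 to 90391202 on chromosome 11, pileup 21.4, −log10 p 5.36). A progenitor peak with no Early-B peak was found at 1.76% of all protein-coding genes. That Hlf peak was of middling rank, its pileup above 46.7% of the progenitor list. The Early-B peak nearest to the Hlf start lay 139584 bp away.

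At Mecom, which spans 558464 bp on chromosome 3, there were 5 Early-B peaks and 1 progenitor peak. The only shared peak lay just inside the first start, with 1725 bp in Early-B (30507259 to 30508983, −log10 p 1.65, q above 0.05) and 2283 bp in progenitors (30507133 to 30509415, −log10 p 3.97). Neither reached that start, which lay 776 bp from the Early-B peak and 344 bp from the progenitor peak. The second start, inside the gene, was covered by a 1219-bp Early-B peak of −log10 p 2.89 and by no progenitor peak. The strongest Early-B peak of Mecom lay near its 3′ end (29958102 to 29959636, pileup 29.1, −log10 p 12.5) and was private. In both lists Mecom's best peak had a pileup well below those at Lmo2, Lyl1 and Tal1. By covered length the order differed in Early-B, where Mecom had 6689 bp, more than Lmo2 with 3942 bp or Tal1 with 3517 bp.

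**Figure D2:**
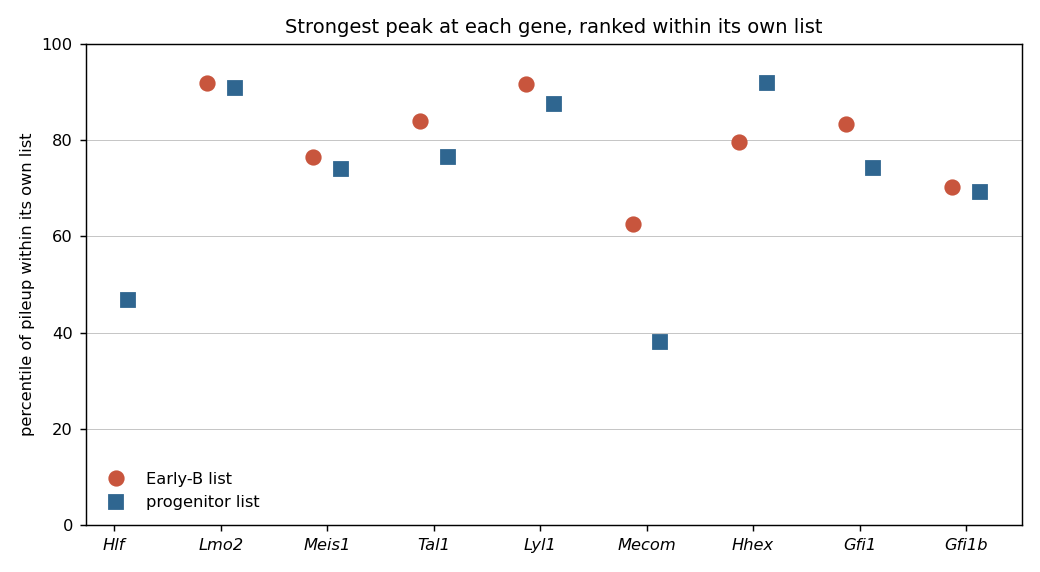
Percentile of pileup within its own list (y axis, 0 to 100) for the peak with the highest −log10 p at each gene (x axis), Early-B as circles and progenitor as squares. Lmo2 and Lyl1 lie high in both lists, at 92.0 and 91.7 in Early-B and 90.8 and 87.6 in progenitors, and Mecom lies at 62.6 in Early-B and 38.0 in progenitors.

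The order of the best peaks by pileup was broadly alike in the lists, with Hhex as the main exception. The best peaks of Lmo2 and Lyl1 had the highest pileups of the set in Early-B, 133 and 131. In progenitors the highest were those of Hhex, Lmo2 and Lyl1, 185, 181 and 170. Tal1 and Gfi1 followed in both lists, at 87.3 and 82.9 in Early-B and 122 and 109 in progenitors. Hhex, the highest in progenitors, had 60.7 in Early-B, below Gfi1. Meis1 and Gfi1b stood lower, at 50.9 and 37.8 in Early-B and 106 and 73.8 in progenitors. Mecom had 29.1 in Early-B and 17.5 in progenitors. Hlf had no Early-B peak and 21.4 in progenitors, above Mecom. Without replicates, neighbouring genes in this order cannot be separated by their spread.

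Covered length was compared next, as the bases of the span and its 5 kb flanks that lay inside a peak, with peaks clipped to that window, because positions are on the same scale in both lists. Of the 8 genes with a peak in both lists, 2 had at least 2-fold more cover in Early-B and 0 had at least 2-fold more in progenitors. Over the 14107 protein-coding genes with a peak in both lists these shares were 13.8% and 2.73%. The cover was 6689 bp in Early-B against 2283 bp in progenitors at Mecom (log2 ratio 1.55), and 7167 against 2786 bp at Gfi1 (1.36). Gfi1b followed with 8325 against 5660 bp (0.56). The others differed less: 10439 against 9151 bp at Lyl1 (0.19), 6949 against 6369 bp at Hhex (0.13), 3517 against 3808 bp at Tal1 (−0.11), 3942 against 4373 bp at Lmo2 (−0.15) and 17566 against 24264 bp at Meis1 (−0.47). The median log2 ratio was 0.16 over these 8 genes and 0.18 over all 14107. Cover was larger in Early-B at 5 of the 8 genes and larger in progenitors at 3, where the shares over all genes were 67.6% and 32.4%.

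**Figure D3:**
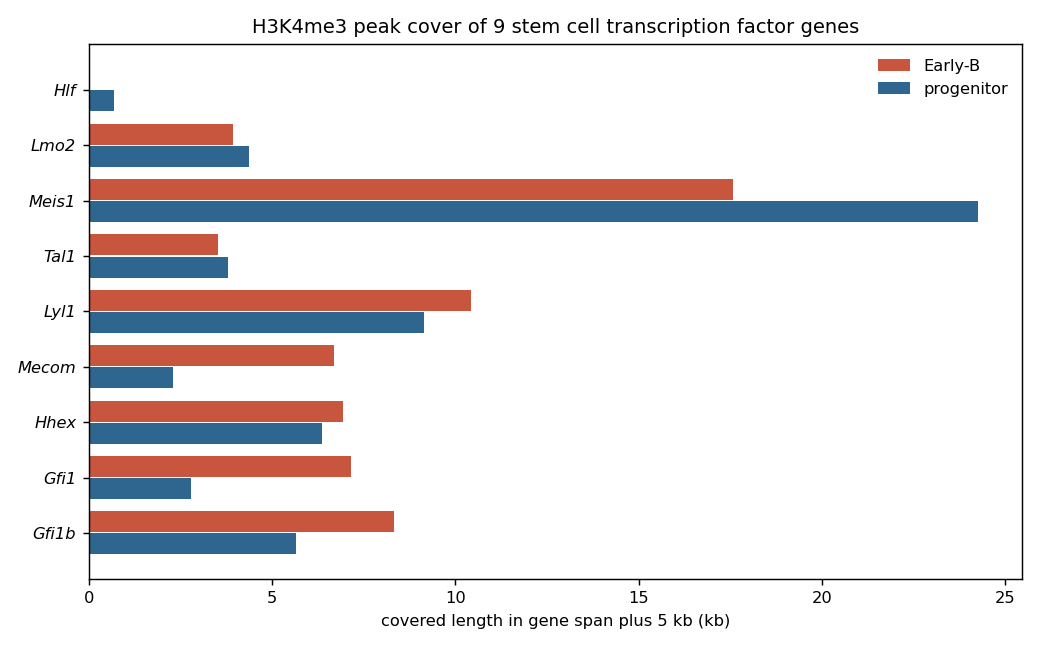
Covered length in kb (x axis, from 0) of each gene's span plus 5 kb, Early-B (red) above progenitor (blue). Meis1 has 17566 bp in Early-B and 24264 bp in progenitors, Gfi1 has 7167 and 2786 bp, and Hlf has a progenitor bar only.

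**Figure D4:**
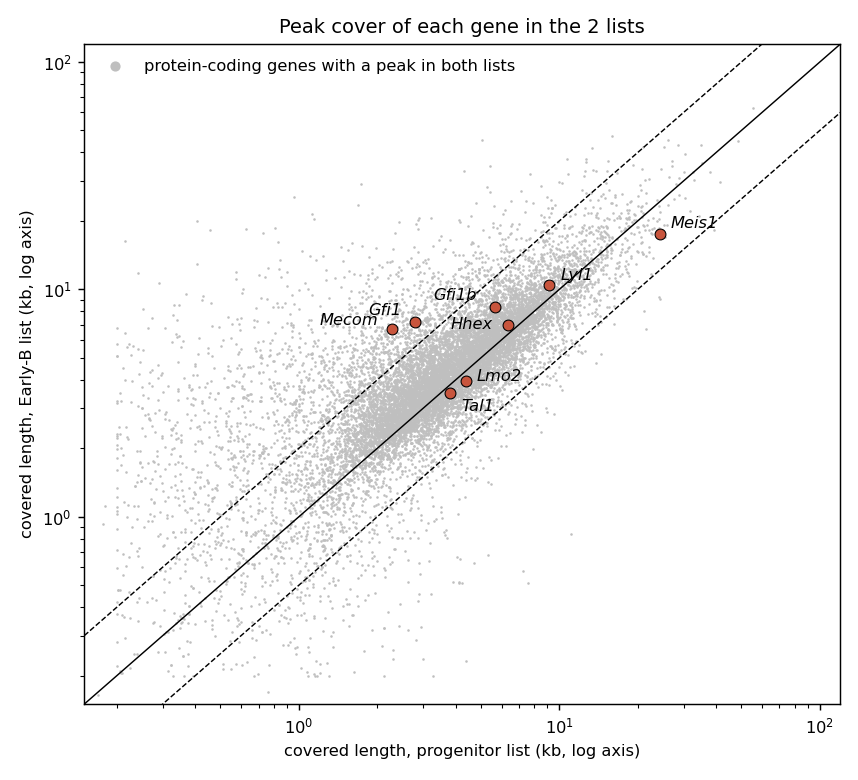
Covered length in the Early-B list (y axis, kb, log scale) against the progenitor list (x axis, kb, log scale) for 14107 protein-coding genes (grey) and 8 of the stem cell factor genes (red, labelled). The solid line is equality and the dashed lines a 2-fold difference. Mecom and Gfi1 lie above the upper dashed line and Meis1 lies below equality. Hlf is absent because it has no Early-B peak.

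The covered-length ratio of Mecom moved with the peaks that were kept. Asking for q of at most 0.05 gave a log2 ratio of 0.65, and at equal list lengths, or when each list's strongest peak alone was measured, the ratio turned to −0.57. A −log10 p of at least 10 kept its strongest Early-B peak and no progenitor peak, so that no ratio could be formed. At Hhex the ratio of 0.13 turned to −0.13 for peaks of −log10 p of at least 10 and to −0.47 by the strongest peak. At Gfi1 the ratio was 0.88 over the gene span alone and 0.54 with 1 kb flanks, since much of the extra Early-B length lies further upstream. At Meis1 the difference was larger with stronger peaks, with a ratio of −0.93 for peaks of −log10 p of at least 10 and −1.02 for those of a fold enrichment of at least 5. At Tal1 the ratio of −0.11 moved to −0.74 at both of these thresholds, which removed the Early-B peak between its starts. Both of the strict thresholds removed every peak of Hlf.

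Where a start was inside a peak of both lists, the peak widths could be set side by side. That held for 5 starts, of Gfi1b, Gfi1, Lyl1, Meis1 and Hhex. The Early-B peak was wider at Gfi1, Gfi1b and Lyl1, and the progenitor peak at Meis1 and Hhex. Over the 10849 starts of all protein-coding genes that were inside a peak of both lists, the Early-B peak was wider at 64.0% and the progenitor peak at 36.0%.

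Promoter sequence was described because the mark is generally found over CpG-rich starts. Among all 21263 promoters of protein-coding genes, those with a ratio of observed over expected CpG of at least 0.6 had their start inside an Early-B peak in 86.7% of cases and inside a progenitor peak in 86.0%. For the rest these shares were 27.3% and 23.0%. Hlf, with a ratio of 0.89 and a GC content of 67.3%, was a CpG-rich promoter with no Early-B peak, and the first starts of Mecom, at 1.02, and of Tal1, at 0.65, were ones with no peak over them in either list. The second start of Tal1, at 0.76, was inside a progenitor peak only. Meis1, with its start inside a peak in both lists, fell just under the split, at 0.59. Lyl1 was the reverse, with a ratio of 0.26 and its start inside a wide peak in both lists. Hhex had 0.88 and the highest GC content of the set, 75.7%, and Gfi1b the lowest, 44.3%, with a CpG ratio of 0.49. The split at 0.6 was chosen after the values were seen.

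The promoters were searched on both strands for 6 short motifs. A core of the EBF1 site, CCCNNGGG, was found in 4 of the 11 promoters (Hlf, the second starts of Tal1 and Mecom, and the first start of Gfi1), and in 15.6% of all promoters. The E-box CANNTG, read by helix-loop-helix factors such as TAL1 and LYL1, was in 8 of 11, against 69.0% of all. GATAA, the core read by GATA factors, was in 4 of 11, against 22.5%. AAATC, a core read by GFI1 and GFI1B, was in 5 of 11, against 33.4%. More than 1 match was found in Gfi1b itself, and also in Hlf and both Mecom promoters. TGACAG, read by MEIS1, was in 1 of 11 (the second start of Mecom), against 18.7%. TTACGTAA, read by HLF, was in 0 of 11, against 0.14%. In the first promoter of Mecom a GATAA and an AAATC match share bases. Such matches describe letters only.

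Among 40 partners and relatives of these factors, most were covered in both lists. A peak was found in both lists at 36 genes, in Early-B only at Nkx2-3, in progenitors only at Tal2, and in neither at Gata1, the erythroid GATA factor, and Ldb2. Of all protein-coding genes, 64.5% had a peak in both lists, 8.47% had one in Early-B alone and 1.76% had one in progenitors alone. At least 2-fold more cover was found in Early-B at 4 of the 36, Erg, Meis2 and Tcf4 among them, and in progenitors at 2 (Lmo1 and Ssbp3), beside 13.8% and 2.73% of all genes. The median log2 ratio was 0.10 over the 36. The 5 corepressor genes of GFI1 and GFI1B (Kdm1a, Rcor1, Hdac1, Hdac2 and Ehmt2) all had a peak in both lists and log2 ratios between −0.07 and 0.27.

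The partner genes with the larger differences were of several kinds. Erg, an ETS factor of stem cells, had 10 Early-B peaks covering 20379 bp and 2 progenitor peaks covering 1143 bp, a log2 ratio of 4.16, and none of the Early-B peaks met a progenitor peak. By −log10 p its best peak reached 27.5 among Early-B peaks and 2.59 among progenitor peaks. By each list's strongest peak alone the ratio at Erg was 1.90. At q of at most 0.05, or at a −log10 p of at least 10, no progenitor peak of Erg was kept. No ratio could then be formed. Meis2, a relative of Meis1, had 19124 bp in Early-B and 5923 bp in progenitors. The best peak of Meis2 was weak in Early-B (−log10 p 6.81) and moderate in progenitors (16.4). Of its 5 Early-B peaks, 1 met a progenitor peak. Tcf4, an E protein that pairs with TAL1-type factors, had 41838 bp in Early-B and 13393 bp in progenitors. Lmo1, the paralog of Lmo2, had 267 bp in Early-B and 1080 bp in progenitors, and Ssbp3, a partner of LDB1, 9056 and 24411 bp. By the strongest peak alone neither Tcf4 (log2 ratio 0.61, against 1.64 by covered length) nor Ssbp3 (−0.57, against −1.43) reached 2-fold. Tal2, a relative of Tal1, had a 278-bp progenitor peak, and Nkx2-3 a 295-bp Early-B peak. Both peaks were weak, with a −log10 p of 2.36 at Tal2 and 1.27 at Nkx2-3.

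Runx1 and Gata2, which act with TAL1, LYL1 and LMO2 in stem cells, had less cover in Early-B, short of 2-fold. Runx1 had 8 peaks covering 16910 bp in Early-B and 15 peaks covering 25434 bp in progenitors (log2 ratio −0.59). By each list's strongest peak alone the ratio of Runx1 was −0.04, and at a fold enrichment of at least 5 it was −0.19. Gata2 had 1339 bp in Early-B and 2231 bp in progenitors (−0.74). Its best peak was weak in Early-B (−log10 p 4.83) and moderate in progenitors (24.3), and the 2 lay at different places. By these strongest peaks alone, of 1009 bp in Early-B and 662 bp in progenitors, the ratio turned to 0.61.

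Marker genes of other cells were counted in the same windows. Of 8 stromal markers, 8 had an Early-B peak and 3 a progenitor peak, where 72.9% and 66.2% of all genes had such peaks, with 22905 bp covered in Early-B and 7258 bp in progenitors. No progenitor peak was found at Sparc, Postn, Cxcl12, Vcam1 or Col3a1, whose own Early-B peak had a −log10 p of only 1.25. Col1a1 and Col1a2 had peaks in both lists and more cover in Early-B, and Pdgfrb had more in progenitors, 3220 bp in Early-B and 4107 bp in progenitors. Of 7 B lineage markers, 7 had a peak in both lists and 7 had at least 2-fold more cover in Early-B, 94177 bp in all against 20894 bp, where 64.5% of all genes had a peak in both lists and 13.8% of those had at least 2-fold more cover in Early-B. Igll1 and Vpreb1 are neighbours under the same 18321-bp Early-B peak. The totals count part of that peak, and a 1483-bp progenitor peak, for both genes. Of 4 endothelial markers, 3 had an Early-B peak and 2 a progenitor peak, beside the same 72.9% and 66.2% of all genes, and Emcn had none in either list. Lmo2, Tal1, Lyl1, Erg and Mecom are also used by endothelial cells and Meis1 and Meis2 by mesenchymal cells, and the part that such cells may have in the values above was not tested.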

How the data were processed

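H3K4me3 ChIP-seq peak lists of Early-B cells and of Ebf1-/- progenitors were used, 1 list per group; the microRNA and Ago2 samples and all of Early-T were left aside. Each list was tied to its group by its name, which matches the sample titles. Bowtie 1.1.2 and MACS 1.4.3 are named as tools, and mm10 as well as GRCh38 as builds, without a role, per the submitters' processing notes. The deposited columns are those that later MACS versions write for broad peaks, so the version used is not settled, nor is what pileup, p and length mean beyond their names. Pooling of replicates, use of input and calling settings are steps not given in the sources used here. Per the file headers, each peak has a position, a length in bp, a pileup, which is a signal of coverage, and a fold enrichment, which is a ratio over background. A pair of deposited columns with damaged names was taken for −log10 p and −log10 q, and 0 peaks in either list have q above p on this scale.

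Peaks were joined, with at least 1 bp of overlap, to RefSeq gene spans of GRCm38.p6 plus 5 kb. Python 3.11.15, numpy 2.4.6, pandas 2.3.3 and matplotlib 3.10.9 were used. Starts and promoters came from RefSeq's promoter table, which matched 8 of the 9 genes, all but Lmo2. With 1 list per group no test was made, and shares over all protein-coding genes or starts are given beside the counts of genes and starts with peaks. Named genes were the 9 members, partner genes past a 2-fold difference or present in 1 list, and Gata2, Runx1 and Erg; a partner gene counted in its list is not reported here by name. Members and lists were chosen with earlier results of these data known. On simulated peaks at 2806 isolated genes, 2806 were put in their class.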

Additional observations from a re-analysis of the deposited data

How the results depend on the processing

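Over 12 listed alternatives and 2 chosen after seeing the data, 78 of 96 recomputed counts stayed within 1.5 times the reported count. Among the 78 are the counts of genes with a start inside a peak when the flanks were changed. Those could not move, because cover of a start does not depend on the flanks. Also among the 78 are the counts without Lyl1, a gene with 1 peak in each list and a log2 ratio of 0.19. Leaving it out could lower a count by at most 1, so these counts were bound to stay within that range. The 15 Early-B and 14 progenitor peaks with a partner became 8 and 8 at a −log10 p of at least 10, and 7 and 7 at a fold enrichment of at least 5. Both settings left fewer than the 23 Early-B and 20 progenitor peaks at these genes. The lower counts therefore do not mean a lower share with a partner. The count of genes with at least 2-fold more cover in Early-B, reported as 2, became 1 at a −log10 p of at least 10, where Mecom kept an Early-B peak but no progenitor peak, and also became 1 at equal list lengths, at a fold of at least 5, over the gene span alone, with 1 kb flanks, at q of at most 0.05 and by the strongest peak alone. The count with 2-fold more cover in progenitors, reported as 0, became 1 (Meis1) at a fold of at least 5. The genes with a peak, reported as 8 in Early-B and 9 in progenitors, were 8 and 7 when −log10 p had to reach 10. For partner genes the Early-B count of 4 became 2 at a −log10 p of at least 10 and 1 at a fold of at least 5. Their progenitor count of 2 became 1 at a −log10 p of at least 10, 6 when 1.5-fold was the size that counts, 0 at a fold of at least 5 and 1 by the strongest peak alone. Among single-gene log2 ratios, that of Mecom turned to −0.57 at equal list lengths and −0.57 by the strongest peak. Smaller ratios that changed sign were those of Gata2 (−0.74, turned to 0.61 by the strongest peak, and −0.27 at q of at most 0.05), Hhex (0.13, turned to −0.47 by the strongest peak and at a fold of at least 5, −0.13 at a −log10 p of at least 10, and just under 0 over the span alone or with 1 kb flanks), Lmo2 (−0.15, turned to 0.09 at both strict thresholds, over the span alone and by the strongest peak) and Tal1 (−0.11, turned to 0.07 with 10 kb flanks and 0.04 by the strongest peak). By the strongest peak, Erg had 1.90 in place of 4.16, Tcf4 0.61 in place of 1.64 and Ssbp3 −0.57 in place of −1.43, the value of Ssbp3 also at a fold of at least 5. At both strict thresholds Tal1 had −0.74 in place of −0.11. The causes were not tested. With starts taken as covered within 1 kb of a peak, 7 genes in Early-B and 8 in progenitors counted. No paired analysis was possible because each group has 1 peak list and no result comes from a test, and no replicate could be left out for the same reason. Depth is unknown, so peaks missing from a list may lie below its detection.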

Other observations

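Noncoding genes on the opposite strand or in the flanks lay under several of these peaks. At Meis1, the start peak of both lists also covered an annotated start of Gm16141, a long noncoding RNA gene on the other strand. At Gfi1b, the start peak of both lists covered the start of Gm52548, also on the other strand. At Tal1, the peak next to the annotated starts overlapped Gm33786 in both lists, and the 494-bp progenitor peak upstream overlapped Gm52674.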
